A study of Homo sapiens with 3 samples.

Results

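DTX4 (Q9Y2E6) is described here with 8 further genes of the Notch pathway in THP-1 cells, a human monocytic leukemia line that carries the MLL-AF9 fusion. These are the Deltex family members DTX2 (Q86UW9) and DTX3L (Q8TDB6), the receptors NOTCH1 (P46531) and NOTCH2 (Q04721), the ligand JAG1 (P78504), the nuclear factors RBPJ (Q06330) and MAML1 (Q92585), and the target gene HES1 (Q14469). The 9 genes are 9 of 213543 features of the count table. They were chosen by their UniProt accessions with the counts of all 3 libraries already known, and DTX4 heads the set because of its change between them, so the values below are a description and no test was run. RNA-seq was performed on untreated cells (0 h) and on cells given 0.2 µM GSK-LSD1, an inhibitor of the histone demethylase LSD1, for 8 h or 24 h, with 1 library per time point and no replicate. All 3 libraries came from total RNA depleted of ribosomal RNA, a single line was used, and the labels name no vehicle for the untreated cells. Counts are listed below in the order 0 h, 8 h and 24 h.

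Notch is a receptor through which a cell reads ligands on its neighbours. A Delta or Jagged ligand exposes the receptor to cleavage by ADAM proteases and then by gamma-secretase, which frees the intracellular domain. In the nucleus this domain joins the DNA-binding protein RBPJ and a Mastermind coactivator, and genes such as HES1 are switched on. Deltex proteins are ubiquitin ligases, and the fly gene was found as a modifier of Notch signalling. In blood the pathway is best known for T cell commitment, and it also acts in myeloid cells.

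RBPJ binds DNA through the core TGGGAA. The promoters below are shown because HES1 is the classical target read through this core, whereas DTX4 is the gene with the largest change in the set. Each sequence is the 250 bases before a RefSeq start of GRCh38.p14, on the strand of the gene, and capitals mark TGGGAA or its reverse complement TTCCCA. The first DTX4 window lies before the start of the second coding transcript and the other before that of the canonical transcript.
HES1, chr3:194135898-194136147, forward strand: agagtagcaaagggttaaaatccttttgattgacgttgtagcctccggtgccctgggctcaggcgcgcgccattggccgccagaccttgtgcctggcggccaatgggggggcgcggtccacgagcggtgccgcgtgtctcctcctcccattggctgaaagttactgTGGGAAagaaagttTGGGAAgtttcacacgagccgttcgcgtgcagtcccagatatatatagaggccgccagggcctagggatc
RBPJ, chr4:26319496-26319745, forward strand: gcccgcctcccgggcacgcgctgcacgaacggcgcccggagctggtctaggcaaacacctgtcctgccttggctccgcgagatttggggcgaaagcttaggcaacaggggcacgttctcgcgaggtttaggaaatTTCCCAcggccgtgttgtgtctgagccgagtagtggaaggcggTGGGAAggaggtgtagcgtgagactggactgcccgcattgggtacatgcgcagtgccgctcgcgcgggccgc
DTX4, chr11:59171180-59171429, forward strand: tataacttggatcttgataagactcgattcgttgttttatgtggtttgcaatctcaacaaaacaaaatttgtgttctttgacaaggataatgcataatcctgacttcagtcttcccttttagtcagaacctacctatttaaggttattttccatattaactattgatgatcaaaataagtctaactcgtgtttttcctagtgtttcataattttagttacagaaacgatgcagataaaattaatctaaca
DTX4, chr11:59171882-59172131, forward strand: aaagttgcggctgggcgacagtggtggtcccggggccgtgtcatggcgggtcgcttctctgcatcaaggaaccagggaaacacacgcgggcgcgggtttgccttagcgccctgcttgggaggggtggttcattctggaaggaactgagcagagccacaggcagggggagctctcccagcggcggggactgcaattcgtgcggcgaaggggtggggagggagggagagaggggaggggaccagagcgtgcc
The HES1 window holds 2 matches, which begin 84 and 70 bases before the start. One of the 5 RBPJ starts has 2 matches in its window, and neither of the 2 DTX4 windows has one. Of all 35116 windows of this length, 20.9% hold at least 1 match on either strand and 2.9% hold at least 2. DTX2 has 1 match, while none was found for DTX3L, JAG1, MAML1, NOTCH1 or NOTCH2. A match is a string of letters and not a measured binding site.

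The libraries summed to 1310912 to 1475938 counts over all features. Levels are in CPM, the counts scaled to a common library size. As a one-sided limit, a count of 0 allows up to 3 counts, or 1.95 CPM at 0 h, 2.34 CPM at 8 h and 2.11 CPM at 24 h. All other intervals here are exact and two-sided 95% intervals of counting error alone, as the reads carry no molecular identifiers and need not stand for independent molecules. Of 9 myeloid markers, CD33 and CSF1R had 0 counts in all libraries, while CEBPA had 1717 to 1848 counts and LYZ 655 to 1773. The 9 myeloid markers summed to 2898, 2950 and 4264 counts, whereas 12 markers of T, B, erythroid and epithelial cells had at most 2 counts each in any library. The part of these markers in the values of the 9 genes was not tested. In these bulk libraries, fewer expressing cells and less RNA per cell cannot be told apart. A low count under an accession does not show that a gene is silent. Each gene was read under a single protein feature, and others of the same gene may exist that could not be identified here. GAPDH, which nearly every cell expresses, had 5, 1 and 4 counts under its reviewed accession. The counting of reads shared by several features is not described in the sources used here, and its part in such low counts was not tested.

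DTX4 encodes a Deltex ubiquitin ligase. It was higher in each later library, with 23, 68 and 211 counts. These are 15.0 CPM at 0 h (interval 9.49 to 22.5), 53.1 CPM at 8 h (41.2 to 67.3) and 149 CPM at 24 h (129 to 170). The 3 counting intervals did not overlap. The ratio of the 8 h to the 0 h library was 3.55-fold, a log2 ratio of 1.83 (1.13 to 2.58). At 24 h the ratio to 0 h was 9.92-fold, a log2 ratio of 3.31 (2.69 to 4.0). From 8 h to 24 h DTX4 was 2.80-fold higher, a log2 ratio of 1.48 (1.08 to 1.90), so the later interval also lay above 0.

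For a view across the whole table, log2 fold changes were computed from log2 CPM to which 2 prior counts had been added, which draws low counts towards 0. A feature was called past the fold when this value lay above 1 or below -1. At 24 h against 0 h the value of DTX4 was 3.19, and it had rank 8 of the 9609 features that reached 10 counts in any library. Of the 4218 that reached 50 counts it had rank 4. At 8 h against 0 h, with a value of 1.73, it had rank 75 of the 9609, and from 8 h to 24 h, with 1.46, rank 98. DTX4 thus stood nearer the top of the table at 24 h than at 8 h. These ranks come from the values by which DTX4 was selected.

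**Figure D1:**
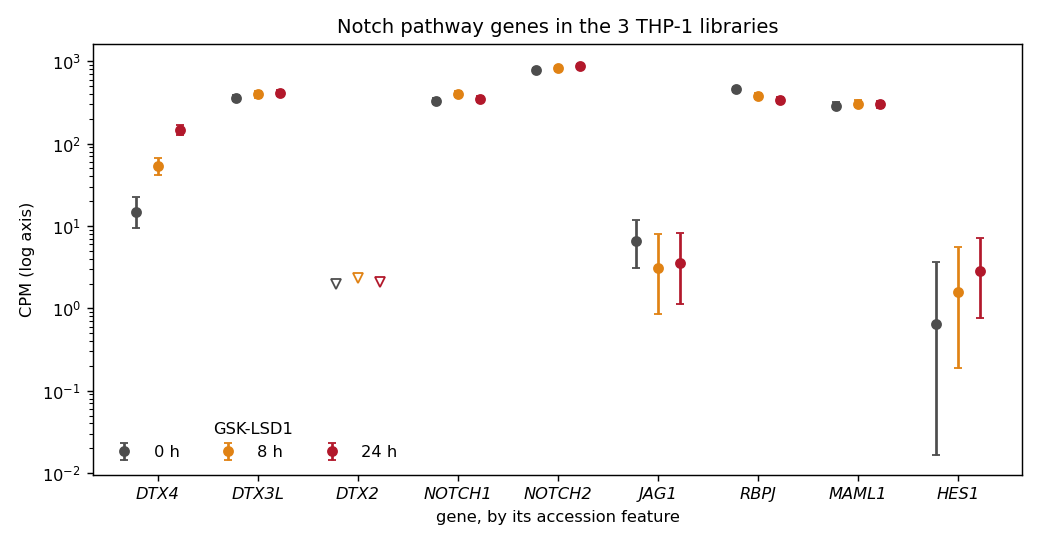
Levels of the 9 genes in the 3 libraries, as CPM on a log axis, with exact 95% counting intervals as bars (1 library per time point). DTX4 goes from 15.0 to 53.1 and 149 CPM without overlap of its intervals. Open triangles for DTX2 mark the limit that a count of 0 allows.

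The DTX4 gene occupies chr11:59171430-59208588 of GRCh38 on the forward strand. GENCODE v44 gives it 4 transcripts, 2 of them protein-coding, and its canonical transcript has 9 exons with 6003 bases. Of these bases, 12.9% are also covered by 2 non-coding DTX4 transcripts that have features of their own, and those features held 0, 0 and 1 counts in all. The last 79 bases of DTX4, 1.3% of its canonical exon bases, overlap the end of MPEG1 on the reverse strand. MPEG1 (Q2M385) encodes perforin-2, a pore-forming protein of macrophages. It was added after its values were seen.

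MPEG1 had 55, 135 and 275 counts. Its log2 ratio was 1.56 at 8 h (1.10 to 2.04) and 2.44 at 24 h (2.01 to 2.88), so it changed in the same direction as DTX4. At 24 h its interval overlaps that of DTX4. FAM111A (Q96PZ2), which lies upstream of DTX4, had 579, 667 and 798 counts, and at 24 h its log2 ratio was 0.58 (0.42 to 0.73). Whether the counting used strand is not given in the sources used here, and the part of reads from the shared 79 bases in the DTX4 counts was not tested.

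**Figure D2:**
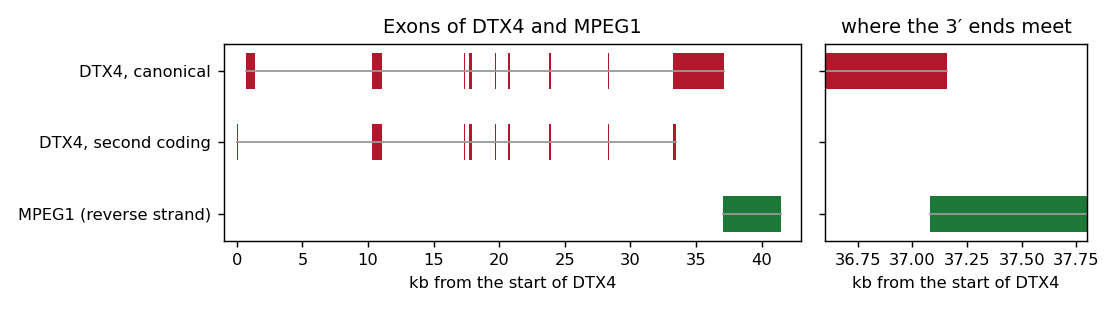
Exons of DTX4 and MPEG1 as boxes, by distance in kb from the start of DTX4, with the meeting of their 3′ ends enlarged on the right. The overlap spans 79 bases of the last exon of the canonical DTX4 transcript, and the second coding transcript ends before it.

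Features with a time course most like that of DTX4 were found by the distance between their log2 fold changes at 8 h and at 24 h, over the 4217 other features that reached 50 counts. The nearest was the accession P04839, with 52, 156 and 499 counts and a distance of 0.15. Next was Q93091, with 11, 37 and 83 counts and a distance of 0.40. No file used here names the genes of these accessions. Among features with a gene name, the nearest was the pseudogene ANXA2P2, at place 7 with a distance of 0.70. The long non-coding RNA LINC00649 had place 8 with 0.77, and a non-coding FAM20C transcript had place 20 with 1.26. Nearer features without a gene name here were passed over. MPEG1, outside this rule, had place 9 in this order with 0.83. Only 2 changes enter each distance, and both share the 0 h library.

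Among the other Deltex genes, DTX3L encodes a ligase that works with PARP9 and is linked to interferon signalling and DNA repair. DTX3L had 552, 508 and 589 counts. Its level was 359 CPM at 0 h, 397 CPM at 8 h and 415 CPM at 24 h, with a log2 ratio at 24 h of 0.21 (0.04 to 0.38) whose interval includes 0 when libraries are scaled by total counts. PARP9 (Q8IXQ6), whose gene lies head to head with DTX3L, had 81, 80 and 64 counts, and at 24 h its log2 ratio was -0.23 (-0.72 to 0.26). Neither of these partners showed a change of the size seen for DTX4.

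DTX2, a close relative of DTX4, had 0 counts in every library under its accession. GENCODE v44 gives DTX2 14 protein-coding transcripts, against 2 for DTX4, and 74.5% of its canonical exon bases are covered by non-coding transcripts with features of their own. One of these, a retained-intron transcript, had 2, 3 and 0 counts. DTX1 and DTX3, the remaining Deltex genes, were also at 0 in all libraries, so a change of these 3 genes was not detectable here.

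NOTCH1 and NOTCH2 are the receptors with counts in these cells, while NOTCH3 had 1, 0 and 0 counts and NOTCH4 had 0 in each library. NOTCH1 had 505, 512 and 496 counts, or 329, 399.9 and 349 CPM. It was highest at 8 h, with a log2 ratio against 0 h of 0.28 (0.10 to 0.46), and at 24 h the ratio was 0.09 (-0.09 to 0.27), an interval that includes 0. NOTCH2 had 1193, 1051 and 1264 counts, the most of the 9 genes. Its log2 ratio was 0.08 at 8 h (-0.04 to 0.20) and 0.20 at 24 h (0.08 to 0.31), and the latter interval includes 0 under scaling by total counts. Neither receptor differed from 0 h by more than 1.22-fold, against 9.92-fold for DTX4. The human genome also holds partial copies of NOTCH2, the NOTCH2NL genes, and how reads shared with them were counted is not given in the sources used here.

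JAG1, a ligand of the Jagged type, had 10, 4 and 5 counts. Its log2 ratio of -0.89 at 24 h (-2.79 to 0.80) had an interval that includes 0, as did that at 8 h, and no change was detectable at this depth. HES1, which encodes a transcriptional repressor, had 1, 2 and 4 counts. The ratio of 24 h to 0 h for HES1 had an interval from -1.22 to 7.74 on the log2 scale, which allows either direction. The matches in the HES1 promoter shown above therefore stand beside a transcript that was hardly counted in any of the libraries.

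RBPJ, the DNA-binding factor of the pathway, was lower after GSK-LSD1, the direction opposite to that of DTX4. It had 704, 485 and 482 counts, which is 458, 379 and 339 CPM. The log2 ratio was -0.27 at 8 h (-0.44 to -0.11) and -0.43 at 24 h (-0.60 to -0.26), and both intervals lay below 0 under each of the 3 library scalings. MAML1, its coactivator, had 447, 391 and 428 counts. The log2 ratio of MAML1 was 0.07 at 8 h (-0.13 to 0.27) and 0.05 at 24 h (-0.14 to 0.25), so that a change beyond 0.27 in either direction lay outside both intervals.

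Levels of different genes were compared as CPM per kb of canonical transcript, which assumes that all exon bases were open to counting. The share of these bases under separate transcript features of the same gene differed. It was 36.9% for NOTCH1, 30.5% for RBPJ, 29.8% for NOTCH2 and 15.8% for MAML1. For DTX4 it was 12.9%, for DTX3L 0.0%, for JAG1 58.1% and for HES1 33.3%. The part of this share in the order below was not tested. At 0 h RBPJ was highest at 84.9 CPM per kb, followed by NOTCH2 at 68.0, DTX3L at 62.3, MAML1 at 50.6 and NOTCH1 at 34.4. DTX4 then stood at 2.49 CPM per kb (1.58 to 3.74), with an interval that overlapped that of JAG1 at 1.10 (0.53 to 2.02), and HES1 at 0.41 overlapped both. The intervals of NOTCH2 and DTX3L also overlapped. At 8 h NOTCH2 at 71.8, RBPJ at 70.2 and DTX3L at 68.8 CPM per kb overlapped, and DTX4 stood at 8.85 (6.87 to 11.2). At 24 h the order was NOTCH2 at 77.9 CPM per kb, DTX3L at 71.9, RBPJ at 62.9, MAML1 at 52.4, NOTCH1 at 36.5 and DTX4 at 24.7 (21.5 to 28.3), where the intervals of neighbours from NOTCH2 to MAML1 overlapped and those of NOTCH1 and DTX4 did not. DTX4 therefore remained the lowest of the 6 well-counted genes in each library, although the distance to NOTCH1 became smaller.

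Of the 9 genes, 7 reached 10 counts in a library, and HES1 and DTX2 did not. DTX4 alone was past the fold in each comparison. At 8 h against 0 h, 1 of 7 was higher and 0 lower, against 4.51% higher and 6.02% lower of the 9609 features. At 24 h against 0 h, 1 of 7 was higher and 0 lower, against 6.19% and 5.58% of all. From 8 h to 24 h, 1 of 7 was higher and 0 lower, against 4.03% and 1.97%. The interval of the log2 ratio lay above 0 for 2 of 7 genes and below 0 for 1 at 8 h, against 11.7% and 9.71% of all features. At 24 h it lay above 0 for 3, DTX4, DTX3L and NOTCH2, and below 0 for 1, RBPJ, against 13.0% and 12.6% of all. DTX4 was selected on these values, so nothing about the set is read from the counts. The median log2 fold change of the 7 at 24 h against 0 h was 0.09, against -0.01 over all features.

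A longer list of 62 pathway genes, the 9 included, was written from textbook roles with earlier results of these data known. The accessions were paired with genes as reviewed UniProt entries, since the table holds no gene names. Beyond the 9 genes, the pairings were made from general knowledge, those of the markers included. They could not be checked with the sources used here. In this list 32 genes reached 10 counts, 23 had at most 3 in any library, and 18 of these were at 0 throughout. Genes with at most 3 counts had a median of 5 protein-coding transcripts and 62.1% of canonical bases under separate transcript features of the same gene, mostly non-coding ones, against 3.5 and 22.0% for those with at least 10 counts. Among the 18 are the gamma-secretase subunits PSEN2 and NCSTN and the protease ADAM17, while MYC, a target gene, had 0, 0 and 2 counts.

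Of the 32, DTX4 and MAML2 were past the fold in the upward direction at 8 h against 0 h, and DTX4, MAML2 and DLL1 at 24 h, with 0 genes lower at either time. Over all features 4.51% were higher at 8 h and 6.19% at 24 h, so that 2 and 3 of 32 genes lie near the share in the whole table. The counting interval of the log2 ratio lay above 0 for 6 genes and below 0 for 5 at 8 h, and above 0 for 11 and below 0 for 7 at 24 h, against 11.7% above and 9.71% below at 8 h and 13.0% above and 12.6% below at 24 h over all features. With libraries scaled by total counts, the counts were 6 above and 7 below at 8 h and 8 above and 10 below at 24 h, so the balance of directions in the list turned with the scaling. Such intervals narrow as counts rise, and only 4218 of the 9609 features reached 50 counts. Genes were not matched to all features by count, here, for the members above or for the roles below. Whether the list differs from the whole table beyond this was not tested. The median log2 fold change of the list was 0.04 at 8 h and 0.07 at 24 h, against -0.01 at both times over all features.

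**Figure D3:**
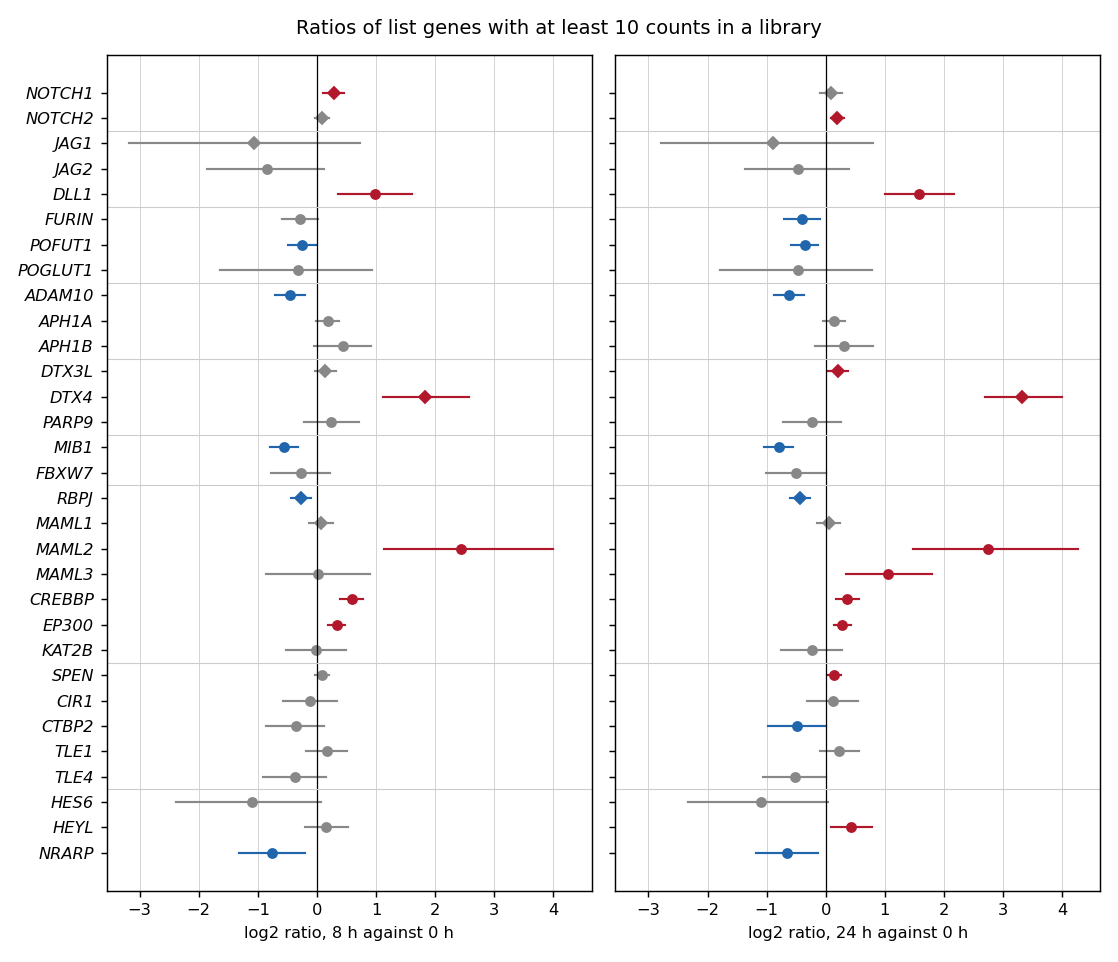
Log2 ratios of 31 of the 32 list genes that reached 10 counts, at 8 h (left) and 24 h (right) against 0 h, with exact 95% counting intervals as lines. Diamonds are the 7 counted members and circles 24 other genes, ordered by role. Red lines lie wholly above 0, blue lines wholly below 0 and grey lines include 0, and DTX4, MAML2 and DLL1 lie furthest to the right at 24 h.

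Among the 3 counted ligands, only DLL1 had an interval above 0, at 8 h and at 24 h. Over all features this share was 11.7% at 8 h and 13.0% at 24 h. DLL1 (O00548), a Delta-type ligand, had 36, 59 and 99 counts. Its log2 ratio was 0.98 at 8 h (0.35 to 1.62) and 1.57 at 24 h (1.01 to 2.17), a 2.97-fold difference. Of its canonical exon bases, 9.8% are covered by exons of FAM120B. JAG2 (Q9Y219) had 30, 14 and 20 counts and an interval that includes 0 at both times. Per length, DLL1 went from 6.20 CPM per kb at 0 h to 18.4 at 24 h, which is below the 36.5 of NOTCH1 at that time.

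Of 7 counted genes of the nuclear complex, 4 had an interval above 0 at 24 h and 1, RBPJ, below it. Over all features 13.0% lay above and 12.6% below. The 4 include 2 of the 3 Mastermind genes. MAML2 (Q8IZL2) had 6, 27 and 37 counts, with a log2 ratio of 2.43 at 8 h (1.13 to 4.0) and 2.74 at 24 h (1.48 to 4.27). Exons of other genes cover 9.0% of the canonical exon bases of MAML2. MAML3 (Q96JK9) had 26, 22 and 50 counts, and its log2 ratio was 0.02 at 8 h (-0.87 to 0.90) and 1.06 at 24 h (0.35 to 1.80). MAML1, the most counted of them, had intervals that include 0 at both times. The acetyltransferases CREBBP (Q92793) and EP300 (Q09472), which the complex recruits, were slightly higher. CREBBP had 401, 502 and 477 counts with a log2 ratio at 24 h of 0.36 (0.17 to 0.56), and EP300 had 818, 860 and 919 with 0.28 (0.14 to 0.42).

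Of 3 counted genes of receptor glycosylation and maturation, 2 had an interval below 0 at 24 h, as did 1 of 4 cleavage genes and 1 of 2 ligases, against 12.6% of all features. Another of the 4 cleavage genes had an interval above 0, against 13.0% of all features, so the cleavage genes went in both directions. Among the glycosylation and maturation genes and the 2 ligases, 0 genes had an interval above 0 at 24 h. MIB1 (Q86YT6), the ligase that drives ligand uptake in the sending cell, had 405, 230 and 215 counts, with a log2 ratio at 24 h of -0.80 (-1.05 to -0.56). ADAM10 (O14672), the protease of the first ligand-induced cleavage, had 358, 218 and 215 counts, and at 24 h its log2 ratio was -0.62 (-0.87 to -0.37). POFUT1 (Q9H488), which adds O-fucose to Notch, and FURIN (P09958), which cuts the receptor during maturation, had log2 ratios at 24 h of -0.35 (-0.58 to -0.13) and -0.39 (-0.70 to -0.09).

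Of the 3 counted genes listed as targets, 1 had an interval above 0 at 24 h and 1 below it. The 5 counted corepressors likewise had 1 and 1. Over all features 13.0% lay above and 12.6% below. Neither corepressor call holds under every scaling. NRARP (Q7Z6K4), a feedback inhibitor that Notch induces, had 85, 42 and 50 counts, with log2 ratios of -0.75 at 8 h (-1.32 to -0.20) and -0.65 at 24 h (-1.19 to -0.13). HEYL (Q9NQ87), a repressor of the same family as HES1, had 130, 121 and 162 counts and a log2 ratio at 24 h of 0.43 (0.09 to 0.78). NRARP and HEYL thus stood on opposite sides of 0 at 24 h. HES6, the remaining counted gene that the list places among the targets, had the lowest log2 fold change of the 3. It was -0.96 at 8 h and -0.95 at 24 h. Whether Notch induces HES6 was not tested. Its interval includes 0 at both times, but lies below 0 at both with total counts. The median log2 fold change of these 3 listed genes at 24 h was -0.63, which is the value of NRARP, against -0.01 over all features. SPEN (Q96T58), a corepressor that binds RBPJ, had 1219, 1081 and 1241 counts and a log2 ratio at 24 h of 0.14 (0.02 to 0.25), whose interval includes 0 with total counts. For CTBP2 (P56545) the interval at 24 h lay below 0 with a value of -0.49, but it includes 0 with DESeq2 size factors. Exons of other genes cover 42.8% of the canonical exon bases of CTBP2.

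**Figure D4:**
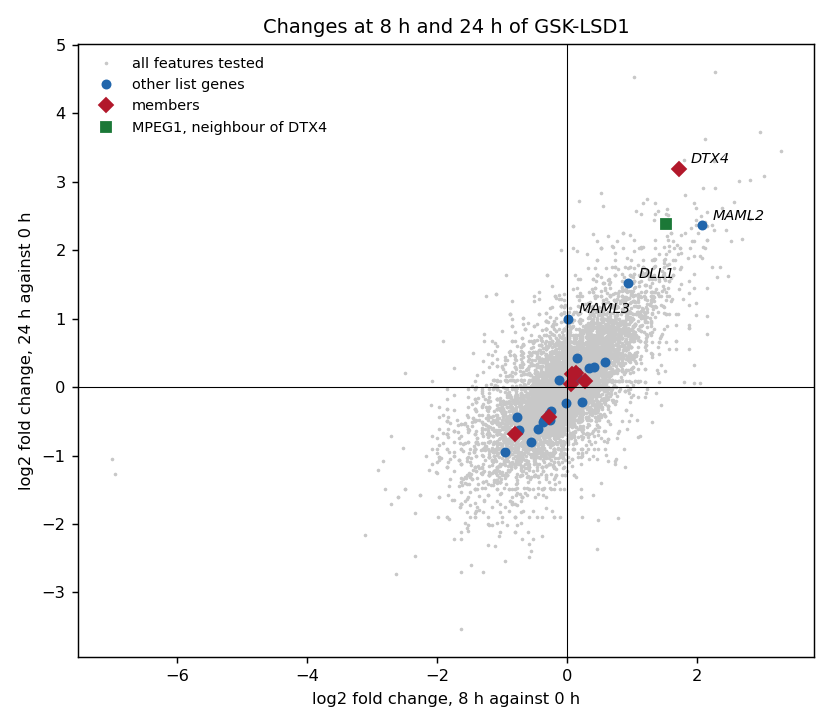
Log2 fold change at 8 h (horizontal axis) and at 24 h (vertical axis) against 0 h for the 9609 features that reached 10 counts, in grey. Members are red diamonds, other list genes blue circles and MPEG1 the green square. DTX4, at 1.73 and 3.19, lies at the upper edge of the cloud, while the remaining members lie between -0.80 and 0.28 at 8 h.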

How the data were processed

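RNA-seq counts of 3 THP-1 libraries (0 h, 8 h and 24 h) were used. Per the labels and the paper's methods, the authors trimmed reads with fastp, mapped them to hg38 with STAR through Seq2science and deposited unnormalized read counts. How reads were assigned to features, on which annotation and strand, and what was done with reads that several features share, is not given in the sources used here. The table lists 73321 protein accessions and 140222 Ensembl transcripts. Columns were assigned to samples by name.

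Library sizes were scaled by TMM (edgeR 4.0.16, R 4.3.3), and log2 CPM values used a prior count of 2. Ratios of named genes used no prior count. Their 95% intervals come from the exact (Clopper-Pearson) method, applied to the share of 1 library in their joint count, while levels carry exact Poisson intervals, computed with scipy 1.17.1 in Python 3.11.15. Ratios were left out where neither count exceeded 3. No p-value was computed, for lack of replicates. The fold rule and the ratio intervals were tried on simulated Poisson counts for 24 h against 0 h. Changes of 4-fold were placed only in features averaging at least 50 counts. Reads that are not independent were not simulated, and the other steps were not tested in this way. Gene models came from GENCODE v44, an annotation of GRCh38, and promoters from RefSeq (GRCh38.p14).

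The members and lists were chosen with earlier results of these data known. Named genes are the 9 members, list genes whose interval lay wholly on one side of 0 at 8 h or 24 h against 0 h, and the features nearest to DTX4. Some list genes enter the counts but are not reported singly here. JAG2, PARP9, HES6 and genes at or near 0 are named to complete a family or role. MPEG1, FAM111A and the non-coding features of the closing section were chosen after their values were seen. Alternatives were DESeq2 1.42.0 size factors, total counts, prior counts of 0.5 and 5, minimums of 50 counts or none, a fold of 4 and the addition of transcript features.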

Additional observations from a re-analysis of the deposited data

How the results depend on the processing

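The 23 log2 ratios of members kept their place within the main interval in all 66 values under DESeq2 size factors, total counts and the addition of transcript features, with shifts of at most 0.18. The number of members with an interval above 0 at 24 h against 0 h was 3, and 1 with total counts, where NOTCH2 and DTX3L dropped out. With no filter on low counts, 2 members were past the fold in the upward direction at 24 h, HES1 being added on 4 counts, and a fold of 4 left 0 at 8 h and 0 from 8 h to 24 h, while DTX4 was past it from 0 h to 24 h. For the 62-gene list, total counts and a prior count of 0.5 each gave 1 lower gene at 8 h and 1 at 24 h, and that prior count gave 2 higher genes from 8 h to 24 h. At least 50 counts gave 1 higher gene at 8 h and 2 from 8 h to 24 h. No filter gave 5 higher and 1 lower from 0 h to 24 h and 3 higher and 1 lower from 8 h to 24 h. A fold of 4 gave 1 higher at 8 h and 0 from 8 h to 24 h.

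Over all features, the comparison of 8 h with 0 h had 433 higher and 578 lower, that of 24 h with 0 h had 595 and 536, and that of 24 h with 8 h had 387 and 189. A prior count of 5 gave 255 and 294 at 8 h, 294 lower at 24 h, and 156 and 78 from 8 h to 24 h. A prior count of 0.5 gave 293 lower in the last comparison. At least 50 counts gave 84 and 64, 139 and 72, and 26 and 4, with fewer features tested. No filter gave 3306 and 2214, 2456 and 2022, and 1820 and 2829, and a fold of 4 gave 39 and 29, 94 and 32, and 20 and 5. The cause of the other shifts was not tested. No paired analysis was possible because each time point has 1 library. At this depth 30 of the 62 list genes stayed under 10 counts in every library.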

Other observations

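Some list genes with few or no counts under their accession had counts under non-coding transcripts of the same gene. A retained-intron transcript of TLE3, a Groucho-type corepressor, had 8, 14 and 10 counts, in the order of the time points. One of MIB2, a ligase for Notch ligands, had 9, 4 and 2 counts. A transcript of CTBP1 without a defined coding sequence had 11, 6 and 5 counts. The accession features read for these 3 genes were at 0 in all libraries, so the non-coding features hold counts where that single protein feature holds none. Further protein features of the same genes may exist and could not be identified here.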
